A study of Mus musculus with 5 samples.

Results

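Chemokines are small secreted proteins that guide the movement of leukocytes, and 10 chemokine genes made by the resident cells of the mouse lung were followed through alveolar repair after lipopolysaccharide (LPS) injury: Cxcl1, Cxcl2, Cxcl5, Cxcl12, Cxcl15, Cxcl16, Ccl2, Ccl7, Ccl20 and Cx3cl1. They were taken by symbol from the 31053 genes of the deposited single-cell tables, and 27 other chemokine ligand genes of the same tables served for comparison. Their unique molecular identifiers (UMIs, one per captured RNA molecule) were summed in alveolar type 2 (AT2) cells, endothelial cells and mesenchymal cells and expressed per 1000000 UMIs of the same cells (CPM). AT2 cells were cells with at least 5% of UMIs from Sftpc, at least 1 Epcam UMI and no UMI of Cdh5, Pecam1 or Col1a2. Endothelial cells had at least 2 UMIs of Cdh5 and Pecam1 together and none of Epcam or Col1a2, and mesenchymal cells had at least 2 UMIs of Col1a2 and none of Cdh5, Pecam1 or Epcam.

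The study asked how β1 integrin in AT2 cells shapes repair of the alveolus. Itgb1 iKO mice carried floxed Itgb1 with SP-C rtTA and Tet-O-Cre, so that doxycycline in the drinking water deleted Itgb1 under a surfactant protein C promoter, and Itgb1 fl/fl littermates without the transgenes received doxycycline as well. The C57BL/6 mice were given doxycycline as juveniles, had a period without it, and as adults received a single intratracheal dose of LPS or PBS. The groups were Itgb1 fl/fl LPS at day 7, Itgb1 iKO PBS at day 7, Itgb1 iKO LPS at day 7, Itgb1 fl/fl LPS at day 21 and Itgb1 iKO LPS at day 21, each 1 library of pooled mice told apart by 3 antibody hashtags. The labels say that the hashtags marked individual mice, and each was taken as 1 mouse here. Viable cells negative for CD45 and Ter119 were sorted, which removes leukocytes and red cells, and the day 21 libraries were also enriched for cells with EPCAM (CD326).

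After filtering, 29500 cells remained, 2224 to 8671 per library, with 8360954 to 29128331 UMIs per library. They held 1916 AT2 cells (26 to 1240 per library), 21327 endothelial cells (879 to 7976) and 1547 mesenchymal cells (103 to 553). A single hashtag could be assigned to 50.3 to 78.7% of cells per library. All 9 AT2 markers were detected in the AT2 cells of every library and made up 260160 to 302700 CPM there, of which Sftpc, which also defined the cells, was 206900 to 247940, and of 14 immune genes 2 to 6 were detected there per library. Ptprc, the gene for CD45, was at 0 UMIs in the AT2 cells of every library, while Tyrobp, S100a8 and S100a9 were detected in those of the Itgb1 iKO LPS library at day 7 and at 0 in those of the other libraries. Itgb1 in AT2 cells was 268 ± 35.1 CPM in Itgb1 fl/fl and 188 ± 32.5 in Itgb1 iKO LPS mice at day 7, and 355 ± 26.8 against 157 ± 19.8 at day 21 (SD, n = 3 each), so Itgb1 RNA was reduced but still present. At day 7 the 3 Itgb1 fl/fl LPS mice had Xist (294 to 320 CPM) and no Y-linked UMIs while the 3 Itgb1 iKO LPS mice had Y-linked UMIs (149 to 159 CPM), so sex and genotype cannot be told apart at that day. Sex was unevenly spread in the other groups too: hashtag 1 of the Itgb1 iKO PBS library had mainly Xist (201 CPM) and its other hashtags mainly Y-linked UMIs, and at day 21 Xist prevailed in Itgb1 fl/fl hashtags 2 and 3 (250.2 and 215 CPM) and Itgb1 iKO hashtag 1 (147), and Y-linked UMIs in Itgb1 iKO hashtags 2 and 3 (78.1 and 108). The cells of hashtag 1 in the Itgb1 fl/fl day 21 library held both (Xist 93.5 and Y-linked genes 84.1 CPM), and whether this hashtag marks 1 mouse was not tested; each day 21 call of a member or pathway gene is also given without it. All mice of a condition shared 1 library, so library and condition cannot be told apart either, and p-values measure the spread between mice within a library. Between 15 and 102 cell barcodes were shared by any pair of libraries (0.675 to 1.41% of the smaller library).

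Chemokines bind G protein-coupled receptors on leukocytes and are held on cell surfaces and matrix by glycosaminoglycans. Cxcl1, Cxcl2, Cxcl5 and the lung epithelial chemokine Cxcl15 belong to the ELR+ CXC group that attracts neutrophils. Ccl2 and Ccl7 attract monocytes through CCR2, and Ccl20 attracts CCR6+ lymphocytes and dendritic cells. Cxcl12 acts through CXCR4 and retains progenitors and leukocytes in tissue. Cxcl16 and Cx3cl1 (fractalkine) are made as membrane-anchored proteins that bind CXCR6 and CX3CR1 and can be shed by ADAM proteases. Transcription of Cxcl1, Cxcl2 and Ccl2 is known to rise with NF-κB activity after LPS or cytokines.

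The genes lie in clusters (GRCm38, GENCODE vM21). On chromosome 5, plus strand, are Cxcl5 (ENSMUSG00000029371, chr5:90759360-90761624), Cxcl15 (ENSMUSG00000029375, chr5:90794534-90803067), Cxcl1 (ENSMUSG00000029380, chr5:90891241-90893115) and Cxcl2 (ENSMUSG00000058427, chr5:90903871-90905938). Ccl2 (ENSMUSG00000035385, chr11:82035571-82037453) and Ccl7 (ENSMUSG00000035373, chr11:82045712-82047525) are neighbours on chromosome 11, which also carries Cxcl16 on the minus strand (ENSMUSG00000018920, chr11:70453983-70459984). Cxcl12 (ENSMUSG00000061353) is at chr6:117168535-117181367, Ccl20 (ENSMUSG00000026166) at chr1:83116766-83119167 and Cx3cl1 (ENSMUSG00000031778) at chr8:94772009-94782427. RefSeq promoter windows (GRCm38.p6) were found for 6 of the 10 genes and were cut where the GENCODE gene begins. Those of Cxcl1 and Cxcl2 are shown 5′ to 3′ with short letter matches in capitals, since most mesenchymal cells with Cxcl2 also had Cxcl1. So are those of Cxcl15 and Cxcl12, the members that separate AT2 from stromal cells. The windows are chr5:90890995-90891240 (Cxcl1), chr5:90903649-90903870 (Cxcl2), chr5:90794284-90794533 (Cxcl15) and chr6:117168285-117168534 (Cxcl12), all on the plus strand.
Cxcl1: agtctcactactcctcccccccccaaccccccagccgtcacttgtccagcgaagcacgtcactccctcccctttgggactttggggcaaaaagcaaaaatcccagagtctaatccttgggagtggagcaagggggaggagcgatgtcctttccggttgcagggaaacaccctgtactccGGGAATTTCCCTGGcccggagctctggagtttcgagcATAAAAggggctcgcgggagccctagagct
Cxcl2: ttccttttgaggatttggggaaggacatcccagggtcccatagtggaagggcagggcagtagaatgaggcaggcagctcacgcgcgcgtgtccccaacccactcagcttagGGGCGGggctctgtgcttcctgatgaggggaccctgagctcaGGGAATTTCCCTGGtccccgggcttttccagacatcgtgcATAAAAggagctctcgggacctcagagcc
Cxcl15: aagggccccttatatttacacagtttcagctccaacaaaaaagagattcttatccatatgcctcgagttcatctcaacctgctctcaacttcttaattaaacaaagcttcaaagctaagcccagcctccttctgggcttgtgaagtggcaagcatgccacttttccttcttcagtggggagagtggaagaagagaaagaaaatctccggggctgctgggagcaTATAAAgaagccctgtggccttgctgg
Cxcl12: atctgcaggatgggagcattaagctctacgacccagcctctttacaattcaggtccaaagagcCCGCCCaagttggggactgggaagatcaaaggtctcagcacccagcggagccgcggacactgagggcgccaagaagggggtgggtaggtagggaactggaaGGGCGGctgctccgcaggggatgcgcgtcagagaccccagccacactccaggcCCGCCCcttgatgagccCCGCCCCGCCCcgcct

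Capitals mark the longest run of letters that the Cxcl1 and Cxcl2 windows share, GGGAATTTCCCTGG (14 bases, which begins like the κB sites that NF-κB binds), the TATA letters TATAAA or ATAAAA, and the GC box letters GGGCGG, each searched on both strands, with letters chosen after the windows were read. The shared run stands at -71 from the RefSeq start in Cxcl1 and -97 in Cxcl2. These are the only 2 of 32851 mouse promoter windows of 250 bases that hold it (0.00609%). Both matches were fixed by how the run was picked, so this share is no test of it. ATAAAA stands at -34 in Cxcl1 and -57 in Cxcl2 and is found in 17.0% of windows. TATAAA stands at -27 in Cxcl15 and is found in 12.4% of windows. The Cxcl12 window holds GGGCGG 5 times, 4 of them as its reverse complement and the last pair overlapping by 1 base, and the Cxcl2 window holds it once, at -139, against 32.7% of windows with at least 1 match. None of these letters occurred in the Ccl20 window (250 bases) or the Cx3cl1 window, which holds only 79 bases. These are matches of letters only.

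The first question was which cells held each chemokine. Of the 258142 Cxcl15 UMIs in all cells, 63.9% lay in AT2 cells, and the AT2 cells of the 12 LPS mice had 8789.6 to 18870.0 CPM. In tests that paired both cell types of each mouse (edgeR's quasi-likelihood test with Benjamini-Hochberg adjustment over all genes), 4 members could be tested between AT2 and endothelial cells in 12 mice and all 4 passed, as did 73.5% of all genes tested. Cxcl15 was higher in AT2 cells by 6.19 on the log2 scale (SE 0.34, adjusted p = 9.413e-15), and Cxcl16 by 0.96 (SE 0.15, adjusted p = 3.446e-06). Cxcl12 was lower in AT2 cells, at -6.84 (SE 0.20, adjusted p = 5.897e-20), and so was Cx3cl1, at -2.34 (SE 0.16, adjusted p = 7.07e-13). Of the 56709 Cxcl12 UMIs 80.9% and of the 7185 Cx3cl1 UMIs 87.0% lay in endothelial cells, which also made up most of the cells. Pooled over libraries, Cxcl12 was at 787 CPM in endothelial and 612 in mesenchymal cells, and Cx3cl1 at 107 and 5.77.

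Cxcl1 and the monocyte chemokines Ccl2 and Ccl7 were highest in the mesenchyme. Between mesenchymal and endothelial cells of 11 mice, 4 of 5 tested members passed, against 56.1% of all genes. Cxcl1 was higher in mesenchymal cells by 7.55 on the log2 scale (SE 0.27, adjusted p = 3.053e-17) and Cxcl16 by 1.06 (SE 0.19, adjusted p = 4.535e-05). Cx3cl1 was lower, at -3.50 (SE 0.21, adjusted p = 4.896e-13), and so was Cxcl15, at -0.93 (SE 0.23, adjusted p = 0.001204), beside 6 of 7 tested AT2 markers (median -0.98), and the part of free AT2 RNA in it was not tested. Cxcl12 was present in both stromal cell types, and the difference of 0.06 (SE 0.21, adjusted p = 0.827) did not pass. Between AT2 and mesenchymal cells, 3 of 4 tested members passed (60.9% of all genes): Cxcl1 and Cxcl12 were lower in AT2 cells, at -3.24 (SE 0.43) and -6.62 (SE 0.27), and Cxcl15 was higher by 7.21 (SE 0.46), while Cxcl16 differed by 0.02 (SE 0.22, adjusted p = 0.936).

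Ccl2, Ccl7, Cxcl2, Cxcl5 and Ccl20 were too sparse for these tests. Pooled over libraries, Ccl2 was at 125 CPM in mesenchymal cells (932 UMIs, 95% Poisson interval 117 to 133, counting error only), 0.566 in endothelial cells (33 UMIs, and 0.361 without the Itgb1 iKO LPS library of day 7) and 0.12 in AT2 cells (2 UMIs). Ccl7 was at 117 CPM (873 UMIs), 0.601 (35 UMIs) and 0.18 (3 UMIs) in the same order. Without the Itgb1 iKO day 21 library the AT2 values were 0 for Ccl2 and 0.329 for Ccl7. Cxcl2 was shared by epithelium and mesenchyme, with 32.4 CPM in AT2 cells, 40.8 in mesenchymal and 1.97 in endothelial cells. The endothelial value was 1.23 without the Itgb1 fl/fl day 21 library, which held 47 of its 115 UMIs (15.7 CPM, and 2.16 with stricter cell definitions), and 3.02 without the PBS library. Cxcl5 reached 4.25 CPM in AT2 cells and 5.64 in mesenchymal cells, from 71 and 42 UMIs, and 3.61 in mesenchymal cells without the Itgb1 fl/fl day 7 library. Ccl20 had 12 UMIs in the whole data set, 5 of them in the 3 cell types, and gives no further result. Between 8.48 and 58.3% of a member's UMIs lay in cells outside the 3 definitions, 54.5% of those of Ccl2 among them.

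**Figure D1:**
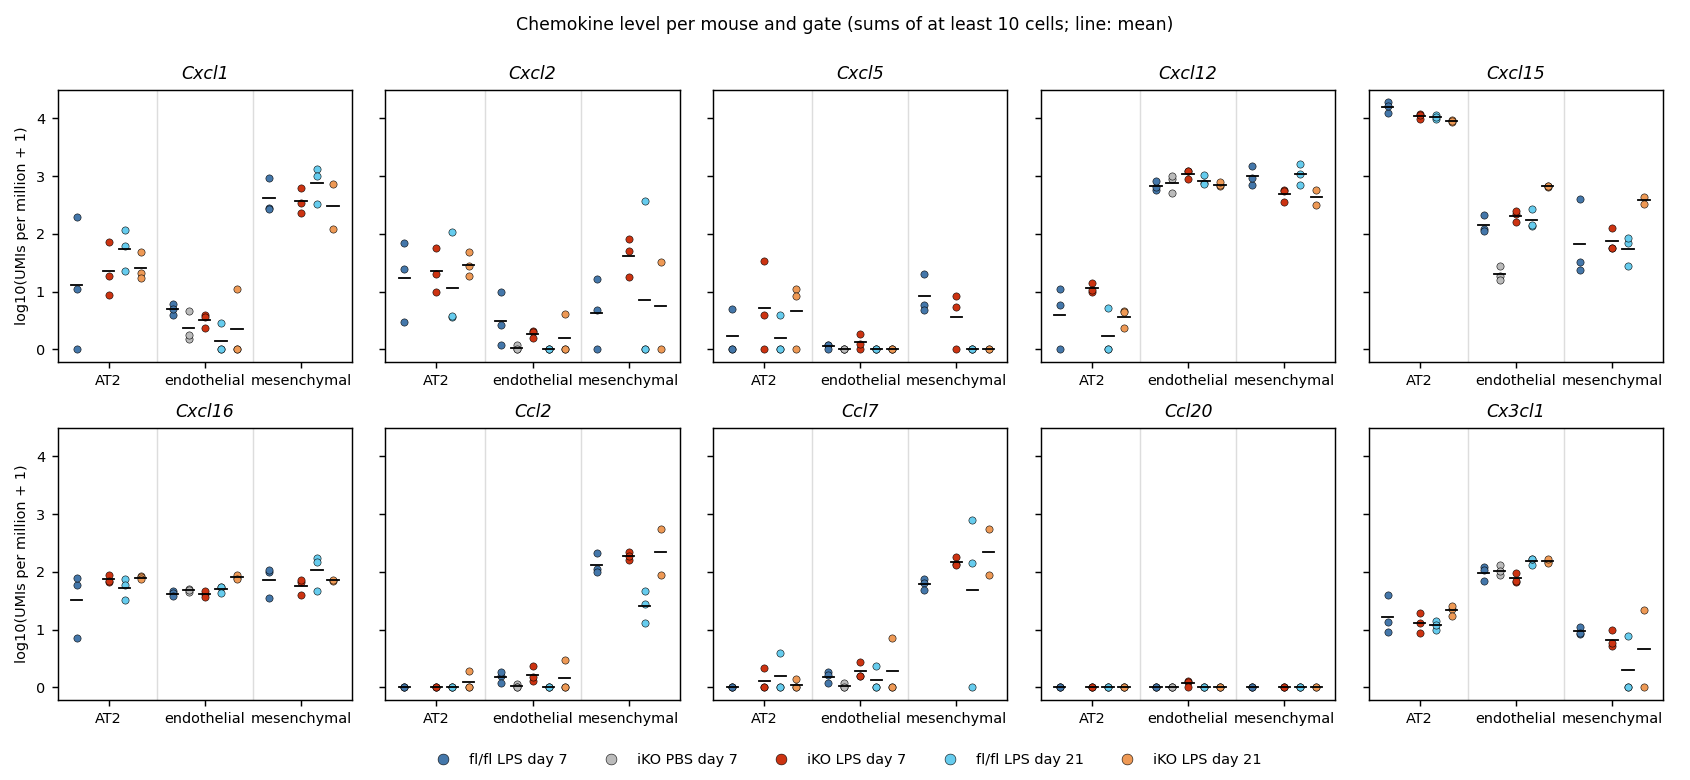
Level of each member (log10 of CPM plus 1) in every mouse with at least 10 cells of a type, by cell type and group, with 1 point per mouse and a line at the mean. Cxcl15 in AT2 cells lies between 8789.6 and 18870.0 in the LPS mice, Cxcl12 in endothelial cells between 507 and 1251 over all mice, and Ccl2 is seen in mesenchymal cells and near 0 elsewhere.

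Within each cell type, subsets defined by the presence or absence of further markers differed in level. Cxcl12 was at 1272 CPM in endothelial cells with Gpihbp1 and no Car4 (6038 cells) and 399 in cells with Car4 (8993 cells). It was at 1161 in cells with Vwf and neither Car4 nor Gpihbp1 (236 cells) and 175 in cells with Prox1 (201 cells). Gpihbp1 and Car4 are known from different capillary cells, Vwf from larger vessels and Prox1 from lymphatics. Cx3cl1 ran the other way, with 159.7 CPM in Car4+ and 59.9 in Gpihbp1+ cells, and so did Cxcl16, with 72.1 against 26.2. In the mesenchyme, cells with Pi16, a gene known from adventitial fibroblasts (379 cells), had 573 CPM of Cxcl1, 219 of Ccl2, 226 of Ccl7 and 907 of Cxcl12, whereas cells with Npnt or Tcf21 and no Pi16 (753 cells), genes known from alveolar fibroblasts, had 236, 64.4, 26.9 and 513. Cells with the pericyte genes Cspg4 or Notch3 and no Pi16 (304 cells), a definition that does not exclude Npnt or Tcf21, had 183, 27.3, 27.3 and 406. Cxcl16 was at 71.2, 69.7 and 62.2 CPM in these 3 subsets. A further 35 cells with Msln or Upk3b, genes known from mesothelium, had 297 CPM of Ccl2, 105 of Ccl7, 124 of Cxcl16 (95% interval 75.7 to 191) and 24.8 of Cxcl12. Cxcl15 was at 9864 CPM in AT2 cells and 306 in the 138 other epithelial cells. The libraries gave these subsets different shares of cells, so levels were also compared within each library. Cxcl12 was higher in Gpihbp1+ (1045 to 1557 CPM) than in Car4+ cells (143 to 556) in 5 of 5 libraries, and Cx3cl1 and Cxcl16 were lower in 5 of 5. Pi16+ cells were above Npnt+ or Tcf21+ cells in 5 of 5 libraries for Cxcl12 and in 4 of 5 for Cxcl1, Ccl2 and Ccl7, the exception being the PBS library with 18 Pi16+ cells. These levels were not tested.

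**Figure D2:**
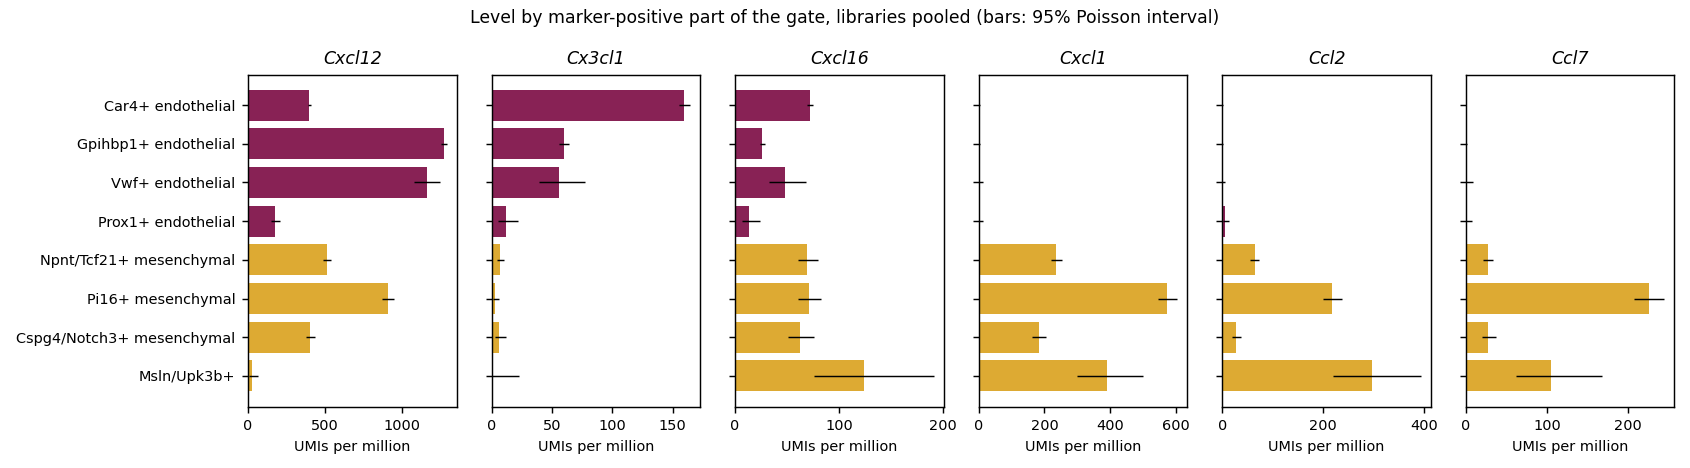
Pooled level of 6 members (bars, CPM) in subsets of endothelial and mesenchymal cells named by their markers, with 95% Poisson intervals of counting error. Cxcl12 is higher in Gpihbp1+ (1272) than in Car4+ (399) endothelial cells, Cx3cl1 is higher in Car4+ (159.7) than in Gpihbp1+ (59.9) cells, and Ccl7 is higher in Pi16+ (226) than in Npnt+ or Tcf21+ (26.9) mesenchymal cells.

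UMIs of the inducible chemokines were found in few cells. Cxcl1 was detected in 254 of 1547 mesenchymal cells (16.4%), 148 of 1916 AT2 cells (7.72%) and 119 of 21327 endothelial cells (0.558%). With each cell thinned to 2000 UMIs, which left out 313, 18 and 8715 shallower cells, the shares were 13.6% (95% exact interval 11.7 to 15.7), 3.74% (2.93 to 4.70) and 0.404% (0.301 to 0.531), the last being the level in a cell type with next to no Cxcl1. Without thinning, Cxcl2 was detected in 36 mesenchymal cells, of which the 10 with most UMIs held 71.1% of its UMIs there. Of these 36 cells 32 (88.9%) also had Cxcl1, but they were only 12.6% of the 254 Cxcl1+ mesenchymal cells. Ccl2 and Ccl7 were detected in 110 and 101 mesenchymal cells, and 51 cells had both, which was 46.4% of the Ccl2+ and 50.5% of the Ccl7+ cells, whereas 3.48% of cells without Ccl2 had Ccl7. Cells with Ccl2 often had Cxcl1 as well (63 cells, 57.3% of the Ccl2+ and 24.8% of the Cxcl1+ cells). Deeper cells show more genes of any kind, which these shares do not correct. In endothelial cells Cx3cl1 was found in 14.8% of Cxcl12+ and in 24.5% of Cxcl12- cells. Since so few cells carried them, single cells set some mouse values: 54 of the 54 Cxcl2 UMIs in mesenchymal cells of Itgb1 fl/fl day 21 mouse 3 lay in 1 cell, as did 121 of 174 Cxcl1 UMIs of mouse 1 of that group and 49 of 53 Ccl7 UMIs of Itgb1 iKO day 21 mouse 2.

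The second question was whether loss of Itgb1 in AT2 cells went with other chemokine levels after LPS. In AT2 cells at day 7, Cxcl15 was at 12344, 18870.0 and 16641 CPM in the Itgb1 fl/fl mice and at 9950.5, 11728 and 11299 in the Itgb1 iKO mice. Each Itgb1 iKO mouse lay below each Itgb1 fl/fl mouse. Of the 3 members that could be tested, Cxcl15 was the 1 called (1.65% of all genes were): it was lower in Itgb1 iKO cells, at -0.64 on the log2 scale (SE 0.16, edgeR adjusted p = 0.0444). This call rested on several mice: it held without Itgb1 fl/fl mouse 1 or mouse 3, and was lost without Itgb1 fl/fl mouse 2 or any of the 3 Itgb1 iKO mice, with values of -0.78 to -0.47 and adjusted p up to 0.221. It was also lost with DESeq2 (adjusted p = 0.0595), with stricter cell definitions (0.0638) and with a looser hashtag rule (0.129), while the value stayed between -0.67 and -0.51. Sftpc, which also defined the cells, differed by -0.09, and Cxcl15 UMIs per 1000 Sftpc UMIs were 68.5 (95% interval 67.4 to 69.6) in the Itgb1 fl/fl library and 52.3 (51.7 to 52.9) in the Itgb1 iKO LPS library, against 43.9 (42.2 to 45.6) in the Itgb1 iKO PBS library. In the same test Lyz2, a lysozyme gene that AT2 cells share with macrophages, was lower, at -0.63, and 1 of 9 AT2 markers (Abca3, 0.97), 1 of 3 tested AT1 markers (Ager, 0.86) and 1 of 5 genes of the Krt8 intermediate state (Cldn4, 5.35) were higher. Their part in the Cxcl15 difference was not tested.

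At day 21 the AT2 levels of Cxcl15 were closer together, at 11339, 9611 and 10454 CPM in Itgb1 fl/fl and 8789.6, 9549.7 and 8851 in Itgb1 iKO mice. The groups again did not overlap, although the nearest mice, 9611 and 9549.7, were almost level. Cxcl15 was lower, at -0.32 (SE 0.088, edgeR adjusted p = 0.0430) and was the 1 of 5 tested members called, against 3.75% of all genes. Beside it Lyz2 was lower again (-0.62), and Abca3 (1.10) and 2 of 5 Krt8 intermediate genes, Krt8 (0.48) and Sfn (0.98), were higher; without Itgb1 fl/fl mouse 1 the call of Krt8 was lost. Without that mouse, whose hashtag held both Xist and Y-linked UMIs, the Cxcl15 difference was -0.25 and the adjusted p = 0.157, and the call was likewise lost without any other single mouse but Itgb1 fl/fl mouse 2 (adjusted p up to 0.167). It was also lost with predicted doublets removed (adjusted p = 0.0520), with stricter cell definitions (0.0898) and with the looser hashtag rule (0.218). The genotype difference did not pass a test between days (0.32, adjusted p = 0.552), where none of 5 tested members was called (0.629% of all genes; 0 members had an unadjusted p under 0.05). Cxcl15 was detected in every AT2 cell of all 5 libraries.

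The other neutrophil chemokines of AT2 cells varied more between mice than between genotypes. Cxcl1 at day 7 was at 9.92, 0 and 196 CPM in Itgb1 fl/fl and 18.0, 71.3 and 7.85 in Itgb1 iKO mice, with 34 of the 41 UMIs of the highest mouse in 1 cell. At day 21 it was at 21.4, 115 and 59.7 against 48.5, 19.7 and 16.1 CPM, a fitted difference of -1.30 (SE 0.39, adjusted p = 0.0658). With no filter on low counts the difference was -1.255 and passed (edgeR adjusted p = 3.643e-07). Without Itgb1 fl/fl mouse 1 this Cxcl1 difference was -1.62 (adjusted p = 0.0100), without Itgb1 iKO mouse 1 it was -1.93 (adjusted p = 0.000966), and over all mice left out it ran up to -0.83 (adjusted p = 0.390). Of the 39 UMIs of Itgb1 fl/fl mouse 2, 34 lay in 1 cell. Cxcl2 was at 1.98, 68.8 and 23.9 against 8.99, 19.3 and 54.9 CPM at day 7 (log2 difference 0.39, adjusted p = 0.897). With 1 mouse left out this day 7 difference ran from -0.70 to 1.60. At day 21 Cxcl2 was at 2.67, 106 and 2.78 against 26.5, 17.4 and 46.7 CPM (0.04). All 36 Cxcl2 UMIs of the mouse at 106 came from 1 cell, and without that mouse the difference was 3.37 with adjusted p = 0.00922. Cxcl5 stayed at or under 33.4 CPM in AT2 cells of every mouse and was not tested.

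Cxcl15 was also counted in stromal cells, where its genotype difference at day 21 had the opposite sign. Endothelial Cxcl15 at day 21 was at 266, 139 and 143 CPM in Itgb1 fl/fl and 656, 672 and 669 in Itgb1 iKO mice, a difference of 1.89 (SE 0.18, adjusted p = 3.466e-06), and it was the 1 of 4 tested members called in endothelial cells at day 21 (1.78% of all genes). In mesenchymal cells it was at 67.9, 85.4 and 27.1 against 437 and 331 CPM (2 Itgb1 iKO mice, since the third had 8 cells), a difference of 2.73 (SE 0.42, adjusted p = 0.0259), again the 1 called of 5 tested (0.39%). The mesenchymal call was lost without any single mouse but Itgb1 fl/fl mouse 2 (adjusted p up to 0.169, that being without Itgb1 fl/fl mouse 1) and with the looser hashtag rule (adjusted p = 0.0826). The endothelial call held without each mouse in turn, and without Itgb1 fl/fl mouse 1, in which 1 cell held 90 of 146 Cxcl15 UMIs, the difference was 2.26. Sftpc rose in the same comparisons, by 2.31 in endothelial and 2.98 in mesenchymal cells (adjusted p = 4.382e-07 and 0.000201), as did 8 of 8 tested AT2 marker genes in the endothelial cells. In droplet data free RNA gives UMIs in cells that do not express a gene, and 1 source keeps its genes in 1 ratio in every cell type. At day 21 the ratio of Cxcl15 to Sftpc had overlapping intervals in all cell types of a library. In the Itgb1 iKO library it was 43.1 Cxcl15 UMIs per 1000 Sftpc UMIs in AT2, 44.5 (42.2 to 47.0) in endothelial and 43.2 (37.5 to 49.4) in mesenchymal cells. Summed AT2 markers in endothelial cells ranged from 994 CPM in the PBS library to 18737 in the Itgb1 iKO day 21 library, where AT2 cells were also most numerous (1240). At day 7 the intervals of some cell types stood apart. The ratio was 68.5 (67.4 to 69.6) in AT2, 70.0 (67.8 to 72.4) in endothelial and 93.9 (80.0 to 109.7) in mesenchymal cells of the Itgb1 fl/fl library, and 52.3 (51.7 to 52.9), 63.7 (61.6 to 65.8) and 56.0 (49.4 to 63.3) in those of the Itgb1 iKO LPS library. In the Itgb1 iKO PBS library the intervals overlapped, at 43.9 (42.2 to 45.6), 40.2 (37.0 to 43.6) and 51.7 (10.4 to 158.8), the last from 3 Cxcl15 UMIs. The part of free RNA in stromal Cxcl15 was not tested. At day 7 endothelial Cxcl15 was at 216, 119 and 110.2 against 222, 248 and 158 CPM (0.47, adjusted p = 0.400), and mesenchymal Cxcl15 at 398, 22.5 and 31.6 against 127, 55.8 and 55.6 (-0.80, adjusted p = 0.988), with overlapping groups. The sign of the mesenchymal value turned without Itgb1 fl/fl mouse 1 (1.41), with doublets removed (0.92) and with stricter cell definitions (1.21). Within Car4+ endothelial cells the day 21 difference was 1.13 and no longer passed (adjusted p = 0.150), while within Gpihbp1+ cells it was 2.25 (adjusted p = 6.26e-10).

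**Figure D3:**
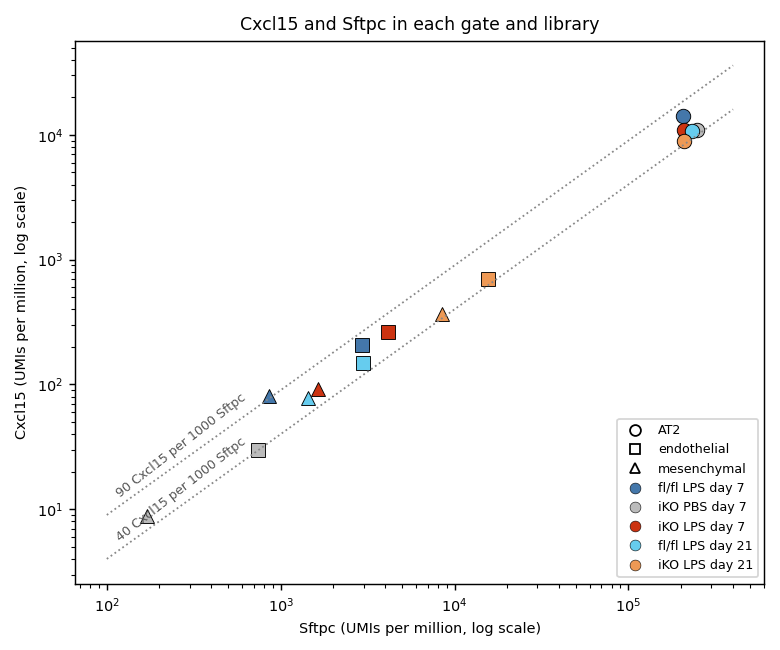
Cxcl15 against Sftpc (CPM, both axes log) in AT2, endothelial and mesenchymal cells of each library, 1 point per library and cell type. Dotted lines mark 40 and 90 Cxcl15 UMIs per 1000 Sftpc UMIs, the stromal points run from 40.2 to 93.9 and the AT2 points from 43.1 to 68.5.

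The genotype difference of Cxcl15 had opposite signs in AT2 and endothelial cells. The AT2 difference minus the endothelial difference was -1.08 at day 7 (SE 0.25, adjusted p = 0.00256; 1 of 6 tested members called, 1.24% of all genes) and -2.25 at day 21 (SE 0.19, adjusted p = 1.536e-20; 1 of 6 members, 1.97% of genes). AT2 markers moved with it: 3 of 9 tested were lower in the same test at day 7 (median -0.81), Lamp3, Sftpb and Slc34a2, and 8 of 9 at day 21 (median -2.24), and the part of free AT2 RNA in these differences was not tested. For Sftpc, whose level the definition of AT2 cells constrains, the values were -0.81 and -2.64. At day 7 the Cxcl15 call was lost without Itgb1 fl/fl mouse 2, Itgb1 iKO mouse 1 or Itgb1 iKO mouse 2 (adjusted p up to 0.218), with DESeq2 (0.388) and with the looser hashtag rule (0.0627). At day 21 it held without each mouse in turn. Cxcl1 gave -3.81 at day 21 (adjusted p = 0.134). It passed without Itgb1 fl/fl mouse 1, Itgb1 iKO mouse 1 or Itgb1 iKO mouse 2 (adjusted p 0.0259 to 0.0422). With a mouse left out the value ran from -6.37 to 0.74, so that its sign turned, and it reached 2.40 under another setting. Its endothelial side rested on 6 UMIs. Cxcl2 gave 2.10 at day 7 (adjusted p = 0.254) and passed without Itgb1 fl/fl mouse 2 (0.00228). Over all mice left out its value ran from -0.66 to 4.10, so that its sign turned as well.

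Cxcl12 in endothelial cells at day 7 was at 579, 646 and 837 CPM in Itgb1 fl/fl LPS mice, 1251, 884 and 1221 in Itgb1 iKO LPS mice, and 507, 880.4 and 994 in Itgb1 iKO PBS mice. All Itgb1 iKO LPS mice lay above all Itgb1 fl/fl LPS mice, but PBS mice spanned both. The difference of 0.68 on the log2 scale (SE 0.22, unadjusted p = 0.0105) did not pass after adjustment (adjusted p = 0.154). None of the 5 members tested in endothelial cells at day 7 was called by edgeR or DESeq2 (2.07% of all genes were by edgeR), and 1 had an unadjusted p under 0.05. Leaving out PBS mouse 1, which enters only the shared estimate of spread, brought Cxcl12 to adjusted p = 0.0423. Car4+ cells took different shares of the libraries: 2986 of 6508 endothelial cells were Car4+ in the Itgb1 fl/fl LPS library and 1466 of 4777 in the Itgb1 iKO LPS library. Within Car4+ cells the Cxcl12 difference was 0.52 (adjusted p = 0.244), and within Gpihbp1+ cells it was 0.55 (adjusted p = 0.412). In summed cells, a change in the mix of cells and a change in RNA per cell cannot be told apart.

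Mesenchymal Cxcl12 ran the other way. At day 7 it was at 711, 1500.5 and 942 CPM in Itgb1 fl/fl and 352, 576 and 551 in Itgb1 iKO LPS mice, a difference of -1.03 (SE 0.30, unadjusted p = 0.00606, adjusted p = 0.573). At day 21 it was at 1071, 1623 and 704 against 577 and 321 CPM (-1.35, SE 0.43, adjusted p = 0.272). Mice of the 2 genotypes did not overlap at either day, but neither difference passed. Without a filter on low counts both passed (edgeR adjusted p = 0.0111 at day 7 and 0.0172 at day 21). Under another setting the day 21 difference was -0.59. A single hashtag was found on 63 of 331 mesenchymal cells (Itgb1 fl/fl) and 47 of 165 (Itgb1 iKO LPS) at day 21. Over all mesenchymal cells, tagged or not, pooled Cxcl12 at day 21 was at 631 against 490 CPM, closer together than in the mice. At day 7 the pooled levels were 881 against 474 CPM. These pooled levels were not tested. At day 21 endothelial Cxcl12 was at 763, 1028 and 732 against 665, 693 and 795 CPM, with overlapping groups and a difference of -0.21. The mesenchymal minus the endothelial genotype difference at day 7 was -1.64 for Cxcl12 (SE 0.30, adjusted p = 0.0720), and none of 9 tested members was called by edgeR (0.0164% of all genes; 2 members had an unadjusted p under 0.05, and DESeq2 called 0). Cxcl12 passed this test without Itgb1 fl/fl mouse 1 (adjusted p = 0.000237), Itgb1 fl/fl mouse 3 (0.00375) or Itgb1 iKO mouse 3 (0.00321) and with stricter cell definitions (0.0322), and over the other mice left out its adjusted p reached 0.540. Cxcl2 gave 3.94 (adjusted p = 0.197) and passed without Itgb1 fl/fl mouse 3 (0.0212), and Cxcl1 gave 0.71 and passed without Itgb1 fl/fl mouse 1 (0.0449).

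Of the monocyte chemokines, Ccl7 in mesenchymal cells at day 7 was at 74.6, 63.6 and 47.5 CPM in Itgb1 fl/fl and 182, 138 and 133 in Itgb1 iKO LPS mice. The groups stood apart, with a difference of 1.40 (SE 0.26, unadjusted p = 0.000322), yet none of the 6 tested members was called (adjusted p = 0.136 for Ccl7; 0.102% of all genes were called, 2 members had an unadjusted p under 0.05, and DESeq2 called 0). Without Itgb1 fl/fl mouse 1 the adjusted p for Ccl7 was 0.0418, and without any filter on low counts Ccl7 was called together with Cxcl2 and Cxcl12, while with the looser hashtag rule the difference was 0.42 (adjusted p = 0.999). Ccl2 in the same cells was at 209, 112 and 97.2 against 161, 219 and 190.5 CPM, and the groups overlapped (difference 0.57). At day 21 Ccl7 was at 792, 0 and 142 CPM against 87.4 and 548, and Ccl2 at 45.2, 12.2 and 27.1 against 87.4 and 548, where Ccl2 did not overlap between genotypes and Ccl7 did. These day 21 values rest on 13 to 26 mesenchymal cells per mouse. In the Itgb1 iKO PBS library, pooled mesenchymal cells had 169 CPM of Ccl2 and 280.2 of Ccl7, with 49 of 58 Ccl2 and 90 of 96 Ccl7 UMIs in 1 cell.

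Cxcl1 in mesenchymal cells at day 7 was at 935, 281 and 270.0 CPM in Itgb1 fl/fl and 610.5, 341 and 234 in Itgb1 iKO LPS mice. At day 21 it was at 1312, 329.5 and 995 against 122 and 724 CPM. The groups overlapped at both days, with differences of -0.30 and -0.99 that did not pass. With 1 mouse left out they ran from -0.75 to 0.57 at day 7, the highest without Itgb1 fl/fl mouse 1, and from -2.92 (without Itgb1 iKO mouse 2) to -0.36 (without Itgb1 iKO mouse 1) at day 21. Endothelial Cxcl1 at day 7 was sparse, at 3.02, 5.10 and 3.97 against 3.00, 2.58 and 1.39 CPM, with groups that did not overlap and a difference of -0.81 (adjusted p = 0.534). Mesenchymal Cxcl2 was at 0, 3.74 and 15.8 against 17.0, 80.3 and 49.9 CPM at day 7, from 0, 1 and 14 against 4, 36 and 61 UMIs, and it did not pass the filter on low counts.

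Neither membrane-anchored chemokine was called between genotypes, although at day 21 Cxcl16 in AT2 and endothelial cells and Cx3cl1 in AT2 cells stood higher in every Itgb1 iKO mouse. Of all genes tested at that day, 25% stood apart between genotypes in AT2 and 18.6% in endothelial cells, in either direction. Cxcl16 in endothelial cells at day 21 was at 54.6, 54.6 and 41.8 CPM in Itgb1 fl/fl and 77.4, 86.2 and 75.0 in Itgb1 iKO mice, which did not overlap, with a difference of 0.71 (SE 0.20, unadjusted p = 0.00227, adjusted p = 0.0876). In AT2 cells at day 21 it was at 32.1, 73.9 and 58.3 against 83.1, 80.0 and 74.0 CPM (0.42, unadjusted p = 0.0456, adjusted p = 0.301), the nearest mice being almost level. At day 7 endothelial Cxcl16 was level, at 45.7, 41.6 and 36.6 against 41.2, 45.4 and 35.2 CPM (-0.05, and 0.55 under another setting). Cx3cl1 in AT2 cells at day 21 was at 13.4, 8.87 and 11.1 against 22.0, 16.5 and 24.3 CPM (0.81, unadjusted p = 0.0307, adjusted p = 0.245). Endothelial Cx3cl1 overlapped between genotypes at both days, with differences of -0.37 at day 7 and -0.0048 at day 21. The sign of the day 7 value turned under another setting (0.36). Cxcl16 in AT2 cells at day 7 was at 59.5, 6.26 and 76.6 against 65.9, 85.8 and 68.7 CPM (0.41, adjusted p = 0.676). In mesenchymal cells it was at 34.8, 97.3 and 107 against 38.2, 64.7 and 70.3 at day 7 (-0.43, adjusted p = 0.979) and at 45.2, 171 and 149 against 69.9 and 72.4 at day 21 (-0.71, adjusted p = 0.684). These groups overlapped.

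The remaining members were too sparse for a genotype test in the other cell types. In cells with a single hashtag, endothelial cells of a mouse had at most 8.86 CPM of Cxcl2, 0.831 of Cxcl5, 2.03 of Ccl2 and 6.08 of Ccl7. AT2 cells had at most 13.3 CPM of Cxcl12, 0.894 of Ccl2 and 2.96 of Ccl7, and Cx3cl1 there at day 7 lay between 7.85 and 38.3. Mesenchymal cells had at most 19.2 CPM of Cxcl5 and 20.7 of Cx3cl1.

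**Figure D4:**
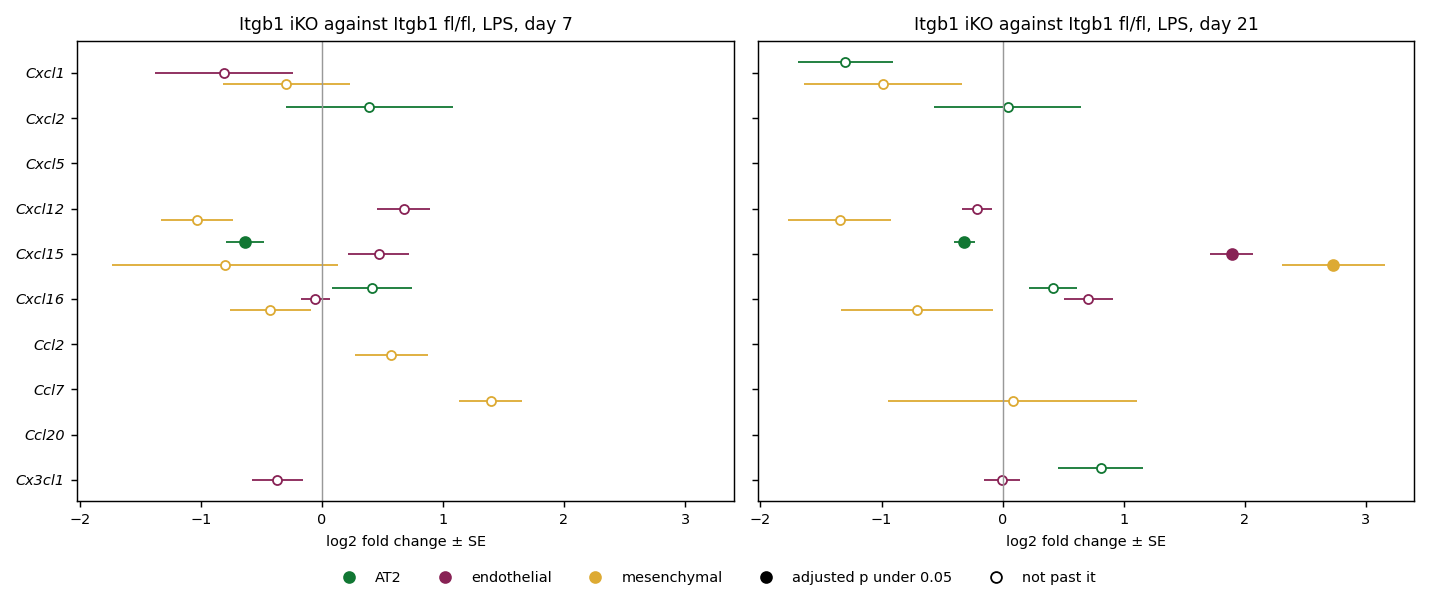
Genotype difference (Itgb1 iKO against Itgb1 fl/fl, log2 fold change, bars SE) of each tested member by cell type and day, with filled points where the adjusted p was under 0.05. Cxcl15 passes the test in AT2 cells at both days (-0.64 and -0.32) and, with the opposite sign, in endothelial (1.89) and mesenchymal cells (2.73) at day 21.

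Counting every member by whether mice of the genotypes overlapped, 1 of 10 stood apart in AT2 cells at day 7 (18.4% of all genes tested did), 2 in endothelial cells (21.9%) and 3 in mesenchymal cells (11%). At day 21 the counts were 3 in AT2 (25%), 2 in endothelial (18.6%) and 3 in mesenchymal cells (32.3%). Members too sparse for a test are included in these counts. Over tested members alone, as the shares of all genes are, the counts were 1 of 3, 2 of 5 and 2 of 6 at day 7 and 3 of 5, 2 of 4 and 2 of 5 at day 21 in the same order. Over the members tested, the median genotype difference was 0.39 in AT2, -0.05 in endothelial and -0.36 in mesenchymal cells at day 7, and 0.04, 0.35 and -0.71 at day 21, while medians over all genes in these 6 comparisons ran from -0.01 to 0.0048.

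The third question was the effect of LPS itself, which could be tested only in endothelial cells of Itgb1 iKO mice at day 7, since the PBS mice had 2 to 9 tagged AT2 cells and 2 to 7 tagged mesenchymal cells each. This comparison shares the Itgb1 iKO LPS mice with the genotype comparison. Of 5 tested members 1 was called, against 26.8% of all genes: Cxcl15, at 18.0, 14.8 and 26.8 CPM with PBS and 222, 248 and 158 with LPS (3.30, SE 0.30, adjusted p = 6.05e-05). Sftpc rose beside it by 2.66 (adjusted p = 0.000618), with 8 of 9 tested AT2 markers and 8 of 9 tested mesenchymal markers, and the part of free RNA in the rise was not tested. Cxcl16 was at 49.1, 43.9 and 48.5 CPM with PBS and 41.2, 45.4 and 35.2 with LPS (-0.32, adjusted p = 0.0625), and Cx3cl1 at 128, 87.6 and 102 against 67.1, 96.0 and 69.6 (-0.56, adjusted p = 0.0655). Both overlapped between groups. Cx3cl1 passed with DESeq2 (adjusted p = 0.0366) and without Itgb1 fl/fl LPS mouse 3 (0.0302). Cxcl16 passed with predicted doublets removed (0.0474), and both passed without Itgb1 iKO LPS mouse 2 (0.0345 and 0.0405). Under other settings the Cxcl16 difference reached 0.20, with its sign turned, and that of Cx3cl1 shrank to -0.26. Car4+ cells were 3521 of 7976 endothelial cells with PBS and 1466 of 4777 with LPS. Fits within Car4+ cells alone and within Gpihbp1+ cells alone were among these other settings. The part of the mix in both differences was not otherwise tested. Cxcl12 differed by 0.39 (adjusted p = 0.215). Cxcl1, at 3.59 CPM or less in these mice, differed by 0.45, and by 1.75 (adjusted p = 0.0495) without PBS mouse 2. Of the 10 members 4 did not overlap between PBS and LPS mice, and 1 of the 5 tested (43.4% of all tested genes): Cxcl15, and Cxcl2, Ccl2 and Ccl7 at or under 1.81 CPM in every mouse.

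For AT2 and mesenchymal cells the pooled Itgb1 iKO libraries are given without a test. In AT2 cells Cxcl15 was at 10880.0 CPM with PBS (26 cells) and 10916 with LPS (355 cells), and Cxcl1 at 74.9 (95% Poisson interval 45.1 to 117, counting error only) and 41.1 (33.9 to 49.3). In mesenchymal cells Cxcl12 was at 233.5 CPM with PBS (103 cells) and 474 with LPS (553 cells), Cxcl1 at 429 and 266, and Cxcl2 at 0 and 42.1, where a count of 0 allows up to 8.76 CPM, taken as 3 UMIs.

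Other genes of the pathway were counted in the same fits. Of 27 other ligands, 2 to 8 could be tested in 5 of the 6 genotype comparisons and none in endothelial cells at day 21, and 1 was called: Cxcl10, a ligand of CXCR3 and 1 of 3 tested there (3.75% of all genes called), was higher in Itgb1 iKO AT2 cells at day 21 by 3.40 (adjusted p = 0.000867), and by 2.99 (0.00423) without Itgb1 fl/fl mouse 1. With LPS, Cxcl14 rose in endothelial cells by 1.05, the 1 called of 8 tested. Of 6 receptor genes tested in endothelial cells with LPS, 3 were higher and 2 lower, where 26.8% of all genes were called. Ackr1, a scavenging receptor of venular endothelium, rose by 6.03, Cxcr4, the Cxcl12 receptor, by 2.03, and Ackr3, which scavenges Cxcl12, by 1.03, while Ackr2 and Ccrl2 fell by 0.96 and 0.54. In the same comparison 2 of 2 tested lymphatic markers were higher and 5 of 10 endothelial markers lower. Cells with Prox1 were 13 of 7976 endothelial cells with PBS and 62 of 4777 with LPS. Cells with Vwf and neither Car4 nor Gpihbp1 were 45 and 94. The part of this mix in the receptor levels was not tested. Ackr3 was lower in Itgb1 iKO endothelial cells at day 21, at -1.51 (adjusted p = 0.0104) and at -1.20 (0.0150) without Itgb1 fl/fl mouse 1, the 1 of 4 receptors called (1.78% of all genes). Of 19 NF-κB components and feedback genes tested in endothelial cells at day 7, Tnfaip3 (0.83) and Rel (0.75) were higher in Itgb1 iKO LPS than in Itgb1 fl/fl LPS mice (2.07% of all genes called). In the same test 2 of 9 mesenchymal, 2 of 3 erythroid and 1 of 9 AT2 markers were higher and 2 of 5 airway markers lower, and their part was not tested. At day 21 none of 17 was higher and Zfp36 was lower, at -0.90, or -0.62 (adjusted p = 0.000228) without Itgb1 fl/fl mouse 1 (1.78% of all genes called). With LPS 2 of 19 rose and 4 fell, Icam1 (-0.83) the most among the latter, a share near the 26.8% of all genes called. None of the 12 NF-κB genes tested in AT2 cells at day 7 or the 18 at day 21 was called between genotypes. Of all genes 1.65 and 3.75% were called, so these counts lie near the shares of all genes. Il33, an alarmin that AT2 cells also express, was higher in Itgb1 iKO AT2 cells at day 21 by 0.95 and Tnfrsf1a, a TNF receptor, by 0.70, the 2 called of 10 genes of cytokines and their receptors (3.75% of all genes). Without Itgb1 fl/fl mouse 1 the Il33 difference was 1.06 (adjusted p = 5.89e-05), and that of Tnfrsf1a was 0.68 and no longer passed (0.0508). In endothelial cells Il33 was higher by 2.73 in Itgb1 iKO mice at day 21 (3.40 without Itgb1 fl/fl mouse 1) and by 3.06 with LPS, beside the rise of Sftpc in the same cells. It was the 1 called of 8 such genes at day 21 (1.78% of all genes), and with LPS 2 of 14 rose and 3 fell, Csf1 (-0.69) the most among the latter (26.8% of all genes). Of 11 tested genes for the processing and presentation of chemokines, 7 rose in endothelial cells with LPS (26.8% of all genes were called there in either direction), led by Sdc1 (3.38), Hspg2 (1.82) and Mmp2 (1.77), of which Sdc1 is also an epithelial gene and Mmp2 and Hspg2 were higher in mesenchymal than endothelial cells.

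Across 38 sums of mouse and cell type, the genes most like each member were ranked as a description only, since the sums share libraries and fall into 3 cell types. Cxcl15 was most like Sftpa1 (Pearson r = 0.99 of log2 CPM), Chil1 and Sftpc. Cxcl12 was most like Ifitm3 (0.97), Cx3cl1 like Gpr146 (0.94), Cxcl1 like Steap4 (0.92), Ccl2 like Cilp (0.98) and Ccl7 like Ssc5d (0.94). Cxcl16 (0.67 with Rnf20), Cxcl2 (0.75 with Eml2), Cxcl5 (0.67 with Col12a1) and Ccl20 (0.40 with Cul3) had no close partner. Among the members, Ccl2 and Ccl7 went together (r = 0.93) and Cxcl12 and Cxcl15 went apart (r = -0.90).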

How the data were processed

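Cells of 5 libraries (15 hashtags, each taken as 1 mouse) were profiled with a 10x 5′ kit and hashtag antibodies. The deposited files hold raw UMI counts per gene and cell, which the authors made with Cell Ranger 3.1 on mm10 (GRCm38) and analysed in Seurat 4.1.0 per the submitters' processing notes; correction for ambient RNA and doublet removal that the study describes are not part of the deposited counts. Barcodes entered with 700 or more detected genes and a share of mt- UMIs between 0.1 and 15%. Gm42418, which shares reads with ribosomal RNA, was left out (0.928 to 1.66% of UMIs). A hashtag counted as present in a cell at 10 counts or more and at least 4 times its median over cells with another top hashtag. A cell was given to a mouse when exactly 1 hashtag was present.

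UMI counts were summed per mouse and cell type (at least 10 cells) and tested, two-sided, in R 4.3.3 with edgeR 4.0.16. Settings were TMM, the default expression filter, the quasi-likelihood test and Benjamini-Hochberg over all genes tested, with a threshold of 0.05. Groups of a fit shared 1 spread, and PBS mice entered only the day 7 fits of endothelial cells alone. Comparisons of cell types kept the mouse as a block. SEs were derived from the test statistic. The scripts were tested on simulated data. Doublets were kept; Scrublet's own threshold marked 0 to 1.55% of cells, and an alternative removed 2.79 to 8.98%. Alternatives were DESeq2 1.42.0, its size factors, no filter, stricter cell definitions, a looser hashtag rule, doublets removed and each mouse left out. The rule called looser gave a cell to its highest hashtag at 10 counts or more and at least 3 times the second. It is a different rule, not a relaxed form of the main one. Median UMIs were 7615 to 11251 per AT2 cell, 1993 to 2490 per endothelial cell and 3054 to 4590 per mesenchymal cell, so that absence of a sparse member in a cell is not shown. All 10 members entered every comparison, and those too sparse for a test are given by their levels or counts. From other lists at most 3 called genes of largest change per comparison are named, and for likeness the 3 genes of highest Pearson r with at least 50 CPM in a cell type (the first named for most members). The members and lists were chosen with earlier results of these data known. Columns of the authors' own comparisons were not used.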

Additional observations from a re-analysis of the deposited data

Results flagged for a closer look

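The genotype difference of Cxcl15 differed between AT2 and endothelial cells by a test of the difference itself at both days. The AT2 difference minus the endothelial difference was -1.08 on the log2 scale at day 7 and -2.25 at day 21 (edgeR adjusted p = 0.00256 and 1.536e-20). The day 7 call was lost in 3 of 6 fits with a mouse left out, with DESeq2 (adjusted p = 0.388) and with the looser hashtag rule (0.0627), and the day 21 call held without each mouse in turn. In AT2 cells Cxcl15 was lower in all 3 Itgb1 iKO than in all 3 Itgb1 fl/fl mice at each day, and in endothelial cells it was higher in all 3 Itgb1 iKO mice at day 21 and overlapped at day 7. AT2 markers moved with it: 3 of 9 tested were lower in the same test at day 7 (median -0.81) and 8 of 9 at day 21 (median -2.24). Of all genes, 1.24 and 1.97% were called there in either direction. The part of free AT2 RNA in these differences was not tested.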

How the results depend on the processing

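Counts of members called, given as the count reported and then the count under a setting, moved as follows. With DESeq2 the count went from 1 to 0 for genotype in AT2 cells at day 7, in mesenchymal cells at day 21 (where DESeq2 gave Cxcl15 no adjusted p) and for AT2 against endothelial cells at day 7, and from 1 to 2 for LPS in endothelial cells. With no filter it went from 0 to 3 in mesenchymal cells at day 7, from 1 to 4 for LPS, from 1 to 2 in AT2 cells and from 1 to 4 in mesenchymal cells at day 21, from 0 to 2 for mesenchymal against endothelial cells at day 7, and from 4, 4 and 3 to 7, 8 and 6 between cell types, where more genes were tested. Stricter cell definitions gave 0 in AT2 cells at both days and 1 for mesenchymal against endothelial cells. The looser hashtag rule gave 0 in AT2 cells at both days, in mesenchymal cells at day 21 and for AT2 against endothelial cells at day 7. Doublet removal gave 2 for LPS and 0 in AT2 cells at day 21. Within Car4+ endothelial cells, a setting chosen with the Gpihbp1+ and the Npnt+ or Tcf21+ settings after seeing the data, the count at day 21 was 0. Apart from the alternatives' own construction, the cause was not tested.

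Leaving out 1 mouse gave counts of 0 to 1 for genotype in AT2, endothelial and mesenchymal cells at day 7, 1 to 3 for LPS, 0 to 2 in AT2 and 0 to 1 in mesenchymal cells at day 21, 0 to 1 and 1 to 2 for the genotype difference in AT2 against endothelial cells at day 7 and day 21, and 0 to 2 for that in mesenchymal against endothelial cells at day 7. Between cell types themselves it gave 4 for AT2 against endothelial, 4 to 6 for mesenchymal against endothelial and 3 to 4 for AT2 against mesenchymal cells. Where a single Itgb1 iKO mouse was left in mesenchymal cells at day 21, it was assumed to vary like the other group. Of 553 values of single members with a mouse left out, 519 kept their side of the threshold, 16 lost and 18 gained a call, and of 432 under other settings 411 did, 10 lost and 11 gained. No called value changed sign.

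Over all genes, counts called moved from 84 to 50 with DESeq2, 157 without a filter and 40 with stricter definitions in AT2 cells at day 7, from 6 to 13 and 193 (DESeq2, no filter) in mesenchymal cells at day 7, from 241 to 365 without a filter and 112 and 92 within Car4+ and Gpihbp1+ cells in endothelial cells at day 7, from 3126 to 1664 and 1138 for LPS within the same subsets, and from 6 to 3 within Npnt+ or Tcf21+ cells. At day 21 they moved from 129 to 65 with DESeq2, 306 without a filter, 39 with the looser hashtag rule and 24 and 30 within the subsets in endothelial cells, and from 8 to 52, 5 and 3 (no filter, doublets removed, looser hashtags) in mesenchymal cells. DESeq2 gave 27 for 144 and 46 for 170 in AT2 against endothelial cells. For mesenchymal against endothelial cells 2 became 80, 7 and 11 (no filter, stricter, looser hashtags), and between days 40 became 95 and 22 (no filter, looser hashtags). Between cell types no filter gave 9601 for 5663, 7665 for 4135 and 6848 for 2905. The median of all genes moved by over 0.1 only without a filter, to 0.12 in AT2 cells at day 21, -0.15 in mesenchymal cells at day 21, 0.12 for AT2 against endothelial cells at day 21, and -0.21 and -0.18 for AT2 and mesenchymal against endothelial cells.

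No paired analysis was possible because hashtag numbers only name mice within a library, which holds for genotype and LPS, whereas comparisons of cell types paired the cells of each mouse. Genotype at day 21 in mesenchymal cells was not run with stricter definitions or within Npnt+ or Tcf21+ cells, and LPS in AT2 and mesenchymal cells could not be tested, for too few cells. Depth limits Cxcl2, Cxcl5, Ccl2, Ccl7 and Ccl20 most, since few cells and few UMIs carry them.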
